A study of Mus musculus with 12 samples.

Results

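The miRNAs described here are 9 mature arms from 3 related mouse clusters (miR-17-92, miR-106a-363 and miR-106b-25), taken by name from a deposited table of 1965 miRNAs: mmu-miR-17-5p, mmu-miR-17-3p, mmu-miR-20a-5p, mmu-miR-20a-3p, mmu-miR-92a-1-5p, mmu-miR-92a-3p, mmu-miR-106a-5p, mmu-miR-106b-5p and mmu-miR-106b-3p (the species prefix mmu is left out from here on). The other 19 arms of the same clusters are given by their counts. Small RNA was sequenced from exosomes of primary mouse hepatocytes at passage 0, cultured in Williams' E Medium with FBS. The 3 groups of 4 libraries each were hepatocytes labelled 16wks HFD (a high-fat diet for 16 weeks), 4wks HFD (4 weeks) and lean, the control group, for which the sample names use NCD (normal chow). The strain, sex and age of the mice are not given in the sources used here. Whether each library stands for a mouse of its own is not stated in the labels, and p-values therefore measure only how these samples vary, which may be technical.

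A miRNA hairpin is cut to a duplex whose 5p and 3p arms can each be loaded into an Argonaute protein, which then pairs with target mRNAs mainly through the seed near the 5′ end of the loaded arm. The miR-17-92 transcript is induced by MYC, and its 5p arms of the miR-17 family are known repressors of cell cycle and apoptosis genes such as E2f1, Cdkn1a and Bcl2l11. The miR-106a-363 and miR-106b-25 clusters are paralogues of miR-17-92, and miR-106b-25 is carried by the gene of the replication factor Mcm7.

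The sequences of the 9 arms are shown because arms with the same seed share most predicted targets, and because the reads fell on some seeds and not on others. They are RefSeq mature sequences (GRCm38.p6), 5′ to 3′, with the seed (bases 2 to 8) in capitals. The first 4 share the seed of the miR-17 family, and the other 5 each have a seed of their own among the 9.
miR-17-5p: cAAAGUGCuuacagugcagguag
miR-20a-5p: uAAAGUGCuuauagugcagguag
miR-106a-5p: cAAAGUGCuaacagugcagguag
miR-106b-5p: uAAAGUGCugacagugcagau
miR-17-3p: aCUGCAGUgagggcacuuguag
miR-20a-3p: aCUGCAUUacgagcacuuaaag
miR-92a-3p: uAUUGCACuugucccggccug
miR-92a-1-5p: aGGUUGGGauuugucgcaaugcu
miR-106b-3p: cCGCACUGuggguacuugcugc

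In the GRCm38 (mm10) build, the 6 hairpins of miR-17-92 lie on the plus strand at chr14:115043671-115044506, within the long non-coding RNA gene Mir17hg, where they overlap an exon. The 6 hairpins of miR-106a-363 lie on the minus strand at chrX:52741693-52742567, in no annotated host gene. The 3 hairpins of miR-106b-25 lie on the minus strand at chr5:138165321-138165818 within Mcm7, where Mir106b is intronic in both transcripts that span it. The mature miR-92a-3p sequence is encoded both by Mir92-1 (chr14:115044476-115044496) and by Mir92-2 (chrX:52741854-52741874), so its reads cannot be assigned to one cluster. The 5p arms of these 2 hairpins differ in sequence, and miR-92a-1-5p of Mir92-1 had 28 reads while miR-92a-2-5p of Mir92-2 had 0, which allows a share of up to 10.7% of the 28 (3 reads). The hairpins of the 2 arms with the most reads are shown with the arms that had a read in capitals, since in Mir17 only the 3p arm was seen.
Mir17: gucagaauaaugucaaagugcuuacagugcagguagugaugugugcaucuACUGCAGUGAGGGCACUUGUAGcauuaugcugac
Mir92-1: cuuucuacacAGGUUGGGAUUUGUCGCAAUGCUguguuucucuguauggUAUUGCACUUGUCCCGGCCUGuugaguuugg

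The libraries were shallow. Reads of the listed miRNAs, recovered from the deposited CPM (reads scaled to a common library total), numbered 20538 to 37596 per library at 16 weeks of HFD, 2352 to 4477 at 4 weeks and 13748 to 30430 in lean. An arm with 0 reads in a whole group could stand at up to 27.1 CPM at 16 weeks, 213 CPM at 4 weeks and 36.2 CPM in lean (3 reads over the group), and these limits, like every interval from reads below, cover counting error only. A single miRNA, miR-101b-3p, took 52.4 to 66.3% of the CPM at 16 weeks, 15.9 to 36.8% at 4 weeks and 54.8 to 70.2% in lean, so miR-92a-3p is also given in CPM recomputed without it. Of 6 hepatocyte markers all had a read, but of their 1975 reads 1817 were miR-802-3p and 149 were miR-192-5p. The other 4 had 1 to 3 reads each in all 12 libraries, among them miR-122-5p, the most abundant miRNA of hepatocytes, with 3. The summed markers, a sum led by miR-802-3p, spanned 7914 to 18566 CPM at 16 weeks, 893 to 2565 CPM at 4 weeks and 3476 to 7427 CPM in lean. Of 6 leukocyte markers 2 were above 0, miR-146a-5p and miR-155-5p, while miR-223-3p, miR-142a-3p, miR-142a-5p and miR-150-5p had 0 reads. The leukocyte sum spanned 23100 to 43294 CPM at 16 weeks, 11392 to 31484 CPM at 4 weeks and 2845 to 14499 CPM in lean, and miR-146a-5p alone 22955 to 43294, 10275 to 26417 and 1797 to 8997 CPM in the same groups. The values of miR-155-5p and 6 other miRNAs, none of them a member, are not whole reads at 16 weeks and in lean: of 46 values 0 were whole as deposited, and 44 would be if same-numbered 16-week and lean values were exchanged, so miR-155-5p is not described on its own. Markers of stellate cells and fibroblasts had 0 reads in 5 of 5, and those of endothelium (1 of 2 read) summed to at most 26.6 CPM. Markers of epithelium (3 of 5 read) summed to 26.6 to 299 CPM at 16 weeks, 223.4 to 1026 CPM at 4 weeks and 0 to 136 CPM in lean. The lowest 4-week sum is the value of 1 read in 4-week replicate 3. The highest lean sum lies below the value of 1 read in any 4-week library, so these ranges do not show a difference. Those of red blood cells (2 of 4 read, with miR-486a-5p, 1 of the 7 miRNAs above) summed to 0 to 68.2 CPM at 16 weeks, 65.3 to 1026 CPM at 4 weeks and 26.6 to 134 CPM in lean. The 65.3 CPM lies below the value of 1 read in any 4-week library (223.4 CPM or more), so it is not a whole read and is no reliable level. The part of depth, miR-101b-3p or these markers in the results below was not tested. In bulk samples, fewer cells of a type, or fewer of their vesicles, and less RNA per cell cannot be told apart.

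The reads of the 9 arms were concentrated in miR-92a-3p. Of their 2416 reads, 2257 (93.4%) were miR-92a-3p, the 12th most abundant miRNA of the table by mean CPM, and 107 were miR-17-3p, the 70th. The remaining arms had 28 reads (miR-92a-1-5p), 15 (miR-20a-3p), 7 (miR-106a-5p), 1 (miR-106b-5p) and 1 (miR-20a-5p), and miR-17-5p and miR-106b-3p had 0. Both leading arms kept their order in every library: miR-92a-3p exceeded miR-17-3p, and miR-17-3p exceeded miR-92a-1-5p, in 12 of 12. Below them the order was not separable from counting, since miR-92a-1-5p exceeded miR-20a-3p in 5 libraries, was below it in 1 and equalled it in 6. Of the other 19 arms, 18 had 0 reads, among them miR-18a, miR-93 and miR-25, and miR-19b-3p had 1 read (425 CPM in 4-week replicate 2).

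**Figure D1:**
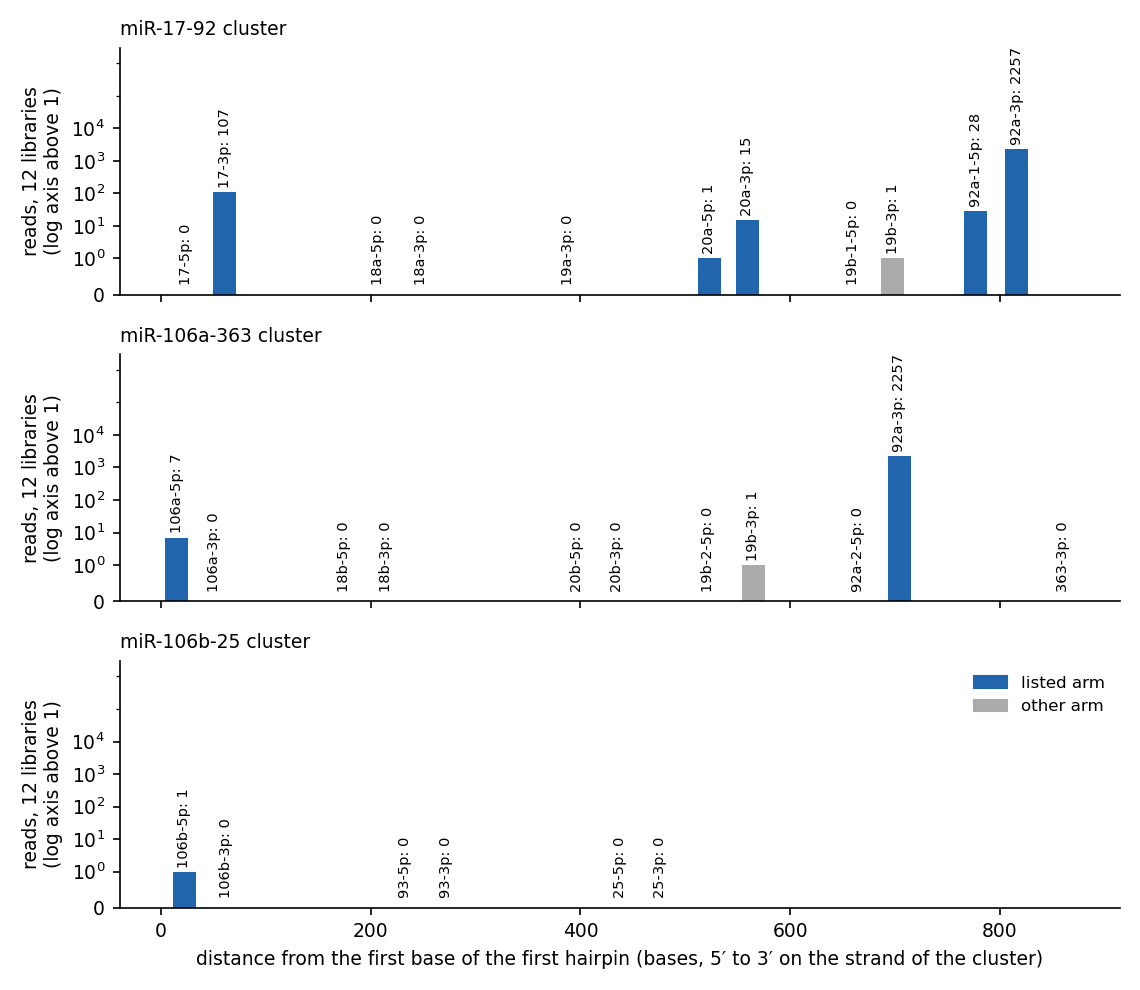
Reads of each arm summed over the 12 libraries (vertical axis, logarithmic above 1), placed by the distance in bases of the arm from the first base of the first hairpin of its cluster, 5′ to 3′. The listed arms are blue and the other arms grey; miR-92a-3p (2257 reads) and miR-19b-3p (1 read) are drawn in both clusters that encode them, since their reads cannot be assigned.

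In the hairpins of miR-17-92 that had reads, the 3p arm dominated. Mir17 gave 107 reads of miR-17-3p and 0 of miR-17-5p, a 3p share of 100% with a 95% exact binomial interval of 96.6 to 100%. The share was 100% in each group, with 70 reads at 16 weeks of HFD, 10 at 4 weeks and 27 in lean. Mir20a gave 15 reads of miR-20a-3p and 1 of miR-20a-5p (93.8%, interval 69.8 to 99.8%). In many tissues the 5p arms of both hairpins are the abundant ones. Whether the 3p excess seen here is particular to these hairpins was not tested. Of the markers above with reads on both arms, miR-802 had 1817 3p and 3 5p reads, and miR-122 had 2 and 3. The intervals take the recovered reads as given. How reads matching several miRNAs were treated is not known, and miR-17-5p lies 1 edit from miR-106a-5p, so its 0 reads are uncertain too. For miR-92a, whose 3p arm is the usual guide strand, 2257 reads of miR-92a-3p stood against 28 of miR-92a-1-5p (98.8%, interval 98.2 to 99.2%), with the 3p reads of 2 hairpins pooled. In the paralogous clusters, 7 reads of miR-106a-5p stood against 0 of miR-106a-3p (3p share 0%, interval 0 to 41.0%), and 1 read of miR-106b-5p against 0 of miR-106b-3p (interval 0 to 97.5%), which is too few for a direction in Mir106b.

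Grouped by seed, the 6 arms with the AAAGUGC seed of the miR-17 family held 9 reads in all, 7 at 16 weeks of HFD, 1 at 4 weeks and 1 in lean. The seed AUUGCAC, which miR-92a-3p shares with miR-363-3p and miR-25-3p, held 2257 reads, all of them miR-92a-3p. The seed CUGCAGU, which miR-17-3p shares with miR-106a-3p and miR-20b-3p, held 107 reads, all miR-17-3p. The mature miR-17-5p and miR-106a-5p differ by 1 edit, and the treatment of reads that match several miRNAs is not given in the sources used here. The split of reads between these 2 arms, and whether any of their reads were left out, is therefore uncertain. By comparison, the nearest other mature mouse arm lies 3 edits from miR-92a-3p and 3 edits from miR-17-3p. Over the 1674 arms of the table that matched a RefSeq mature sequence, 29 of 99 (29.3%) with 1 or 2 edits to the nearest other sequence had a read. With 6 or more edits it was 422 of 1275 (33.1%). Of the matched arms encoded by 2 or more hairpins, 11 of 53 (20.8%) had a read, and of those encoded by 1 hairpin 544 of 1621 (33.6%). These shares count arms with any read and do not show how reads of near-identical arms were assigned, which was not tested.

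The level of miR-92a-3p, an arm known in mouse endothelium for repressing integrin alpha-5 and vessel growth, averaged lower in both HFD groups than in lean, but whether the difference passed depended on the test. It stood at 6596, 9430, 7144 and 8813 CPM in the 16-week libraries (replicates 1 to 4), at 4873, 8503, 10721 and 18291 CPM in the 4-week libraries, and at 24367, 15380, 9151 and 14655 CPM in the lean libraries. Lean replicate 3 lay within the range of the 16-week group, and lean replicates 2, 3 and 4 within that of the 4-week group, so neither HFD group was separated from lean on this scale. The means were 7996 ± 1343 CPM at 16 weeks, 10597 ± 5667 CPM at 4 weeks and 15888 ± 6300 CPM in lean (SD, n = 4 each). The 4-week group had the widest spread relative to its mean, and its values rest on 19, 20, 48 and 61 reads, against 167 to 276 reads per library at 16 weeks and 215 to 468 in lean. Counting error does not cover that spread, since the 95% exact interval of 4-week replicate 1 (2936 to 7599 CPM) ended below that of 4-week replicate 4 (14019 to 23434 CPM).

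In the 16-week libraries against lean, the difference of miR-92a-3p was -0.92 on the log2(CPM + 1) scale (SE 0.41, 95% interval -1.79 to -0.05), with an adjusted p of 0.259 in limma, which tested 267 miRNAs across all 12 libraries. By limma, 0 of the 5 listed arms that passed its filter were called at an adjusted p under 0.05. Of all tested miRNAs, 2.62% were called in this comparison (7 of 267). Before adjustment 50 miRNAs lay under 0.05, miR-92a-3p among them (limma unadjusted p = 0.0399, edgeR unadjusted p = 0.00887). The count test edgeR, run on the recovered reads of 72 miRNAs as an alternative, called miR-92a-3p lower with a log2 fold change of -0.95 (edgeR adjusted p = 0.0319). Its filter on low reads kept 2 of the 9 arms, miR-92a-3p and miR-17-3p, and of all 72 miRNAs tested 16.7% were called lower (12). DESeq2 on the same reads also called it lower (log2 fold change -1.34, DESeq2 adjusted p = 0.000669), as it did 34.3% of its tested miRNAs. The edgeR call was lost without TMM scaling (log2 fold change -0.99, adjusted p = 0.0601), without miR-101b-3p (-0.86, adjusted p = 0.0518) and with no filter on low reads (-0.76, adjusted p = 0.448). It was also lost without any one of the 16-week libraries, 4-week replicates 2 or 4, or lean replicates 1 or 2. Over all 12 libraries left out in turn, the log2 fold change spanned -1.34 to -0.65 (edgeR adjusted p 0.0142 to 0.212).

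In the 4-week libraries against lean, which share the lean libraries with the comparison above, the limma difference of miR-92a-3p was -0.66 (SE 0.41, interval -1.53 to 0.21, adjusted p = 0.254). By limma 0 of the 5 listed arms that were tested were called. Of all tested miRNAs 21% were called (56 of 267), with 93 under 0.05 before adjustment. By edgeR it was called lower, with a log2 fold change of -1.18 (edgeR adjusted p = 0.00622), as were 30.6% of the 72 miRNAs tested, and the call held without each library in turn (edgeR adjusted p 0.00367 to 0.0431). DESeq2 called it lower as well (log2 fold change -1.31, DESeq2 adjusted p = 0.000826), as it did 34.7% of its tested miRNAs. The edgeR call was lost without TMM scaling (log2 fold change -0.59, edgeR adjusted p = 0.226). The scalings moved the median of all tested miRNAs: at 4 weeks against lean it was -0.03 with TMM and 0.55 without, and relative to these medians miR-92a-3p stood at -1.15 and -1.14. In the limma comparison that median was -1.27, with 66 of the 267 tested miRNAs at 0 in all 4-week libraries, and relative to it miR-92a-3p stood at 0.61. The sign of that limma value depended on the pseudocount, the filter and the scaling: it was -0.028 and -0.42 with pseudocounts of 10 and 50 CPM, -0.66 with no filter and -1.20 after quantile normalization, but 0.11 with a filter of 100 CPM and 0.39 without miR-101b-3p.

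**Figure D2:**
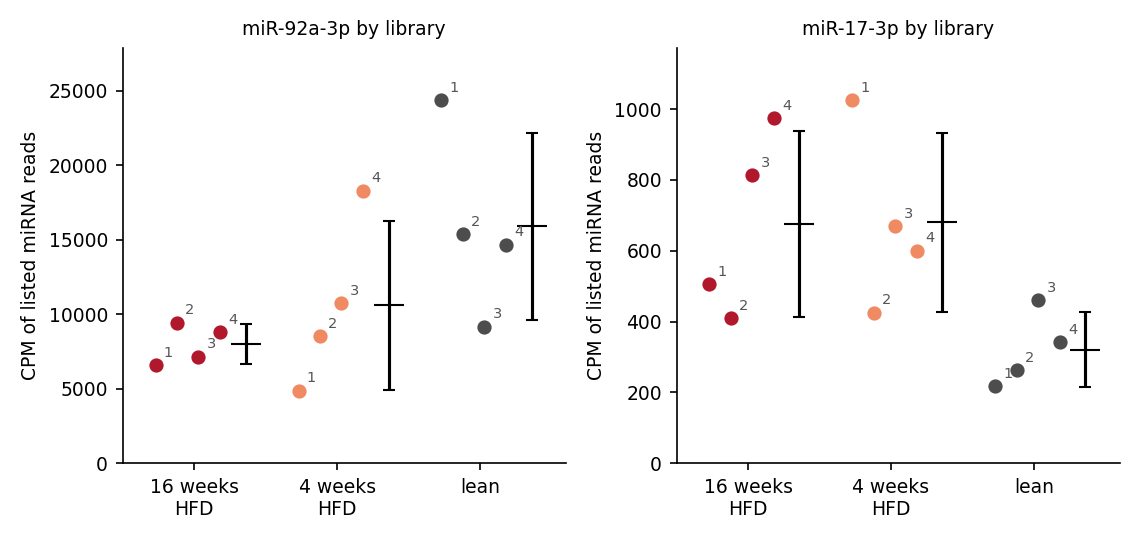
CPM of miR-92a-3p and miR-17-3p in each library of the 16-week HFD, 4-week HFD and lean groups, with the replicate number beside each point and the mean ± SD (n = 4) as a bar. The mean of miR-92a-3p is 7996 CPM at 16 weeks, 10597 at 4 weeks and 15888 in lean, with 1 lean library inside the range of both HFD groups; miR-17-3p runs the other way, with overlapping groups.

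In CPM recomputed without miR-101b-3p, miR-92a-3p stood at 18680, 27637, 16626 and 18528 CPM in the 16-week libraries, at 5791, 10776, 16971 and 25113 CPM in the 4-week libraries, and at 63327, 41501, 31324 and 32345 CPM in the lean libraries. On this scale every 16-week library and every 4-week library lay below every lean library. Of all tested miRNAs, 10.2% at 16 weeks and 16.2% at 4 weeks were separated from lean in the same direction on this scale, and miR-92a-3p was the only member among them in either comparison. Limma on these values gave -1.02 at 16 weeks against lean (adjusted p = 0.184, where 2.26% of tested miRNAs were called lower) and -1.66 at 4 weeks against lean (limma adjusted p = 0.0121, with 18.8% called lower).

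The rank of miR-92a-3p within a library needs no scaling. It was 16th, 13th, 16th and 16th in the 16-week libraries, 20th, 18th, 12th and 11th in the 4-week libraries, and 5th, 7th, 9th and 8th in the lean libraries. It ranked lower in all HFD libraries than in any lean library, which was so for 12.9% of the miRNAs read in all 8 libraries at 16 weeks against lean and for 14.8% at 4 weeks against lean.

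Between the diets, the difference of miR-92a-3p at 16 against 4 weeks was -0.26 (limma, interval -1.13 to 0.61, adjusted p = 0.714). The groups overlapped, and the sign turned with the scaling, with 0.23 by edgeR (adjusted p = 0.59) and 0.64 by limma without miR-101b-3p (adjusted p = 0.325).

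The other arm with reads in every library was miR-17-3p, which is the less abundant, passenger arm of its hairpin in most tissues. It stood at 505, 410, 813 and 974 CPM in the 16-week libraries, at 1026, 425, 670 and 600 CPM in the 4-week libraries, and at 218, 263, 460 and 341 CPM in the lean libraries. Lean replicate 3 exceeded 16-week replicate 2 and 4-week replicate 2, and the other HFD libraries lay above all lean libraries. The means were 676 ± 263 CPM at 16 weeks, 680.2 ± 252 CPM at 4 weeks and 320.4 ± 106 CPM in lean (SD, n = 4 each). These values rest on 12 to 20 reads per library at 16 weeks, 1 to 4 at 4 weeks and 3 to 11 in lean.

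No test or setting that was run called miR-17-3p in any comparison. Its limma difference was 1.05 at 16 weeks against lean (interval -0.36 to 2.45, adjusted p = 0.453) and 1.07 at 4 weeks against lean (interval -0.33 to 2.47, limma adjusted p = 0.254). By edgeR the log2 fold changes were 0.96 (adjusted p = 0.15) and 0.55 (adjusted p = 0.463). Summed over libraries, its share of reads at 16 weeks was 1.94 times that in lean (interval 1.23 to 3.14), which covers counting error of the pooled reads and no difference between libraries. In CPM recomputed without miR-101b-3p it averaged 1643 ± 394 CPM at 16 weeks, 911 ± 296 CPM at 4 weeks and 901 ± 455 CPM in lean (SD, n = 4 each). On that scale the limma difference from lean was 0.95 at 16 weeks (adjusted p = 0.476) and 0.067 at 4 weeks (limma adjusted p = 0.936), so the higher 4-week mean was seen on the deposited scale and not on this one. At 16 against 4 weeks the difference was -0.02 (limma adjusted p = 0.994) on the deposited scale and 0.40 by edgeR (adjusted p = 0.59).

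**Figure D3:**
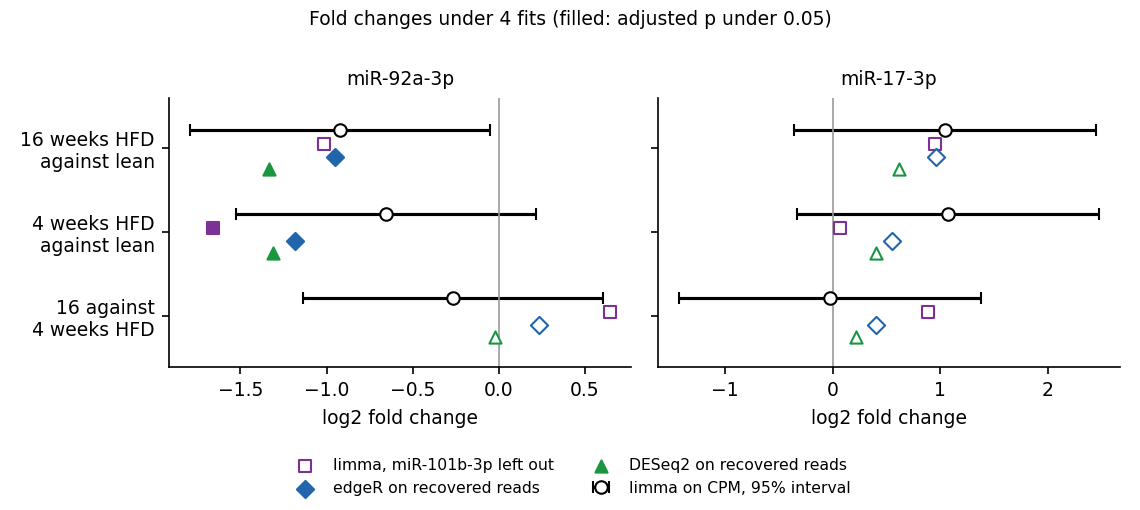
Log2 fold changes of miR-92a-3p and miR-17-3p in the 3 comparisons by 4 fits: limma on CPM with its 95% interval, limma without miR-101b-3p, edgeR and DESeq2 on recovered reads. Filled symbols have an adjusted p under 0.05: against lean, edgeR and DESeq2 for miR-92a-3p at both times and limma without miR-101b-3p at 4 weeks (-1.66), and none for miR-17-3p or for 16 against 4 weeks.

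The ratio of both arms within a library does not depend on its scaling. Reads of miR-92a-3p over reads of miR-17-3p came to 13.1, 23, 8.79 and 9.05 in the 16-week libraries, 4.75, 20, 16 and 30.5 in the 4-week libraries, and 112, 58.5, 19.9 and 43.0 in the lean libraries. The medians were 11.1 at 16 weeks, 18 at 4 weeks and 50.7 in lean, and lean replicate 3 lay within the range of both HFD groups. At 4 weeks each ratio rests on at most 4 reads of miR-17-3p.

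**Figure D4:**
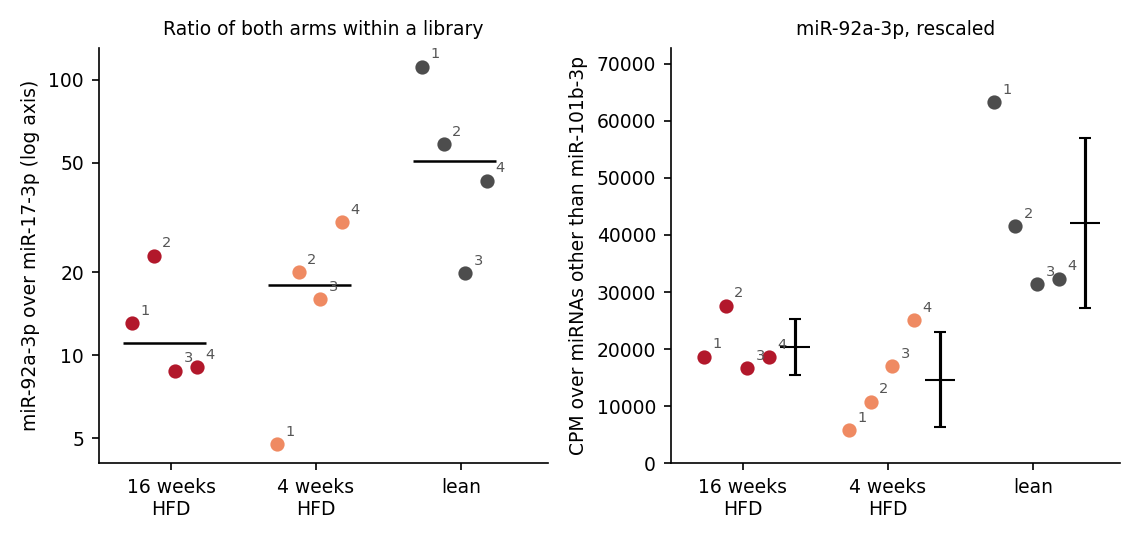
Left, reads of miR-92a-3p over reads of miR-17-3p in each library (logarithmic axis), with the median of each group as a line: 11.1 at 16 weeks of HFD, 18 at 4 weeks and 50.7 in lean. Right, miR-92a-3p in CPM recomputed without miR-101b-3p, with the mean ± SD (n = 4) beside the points; all 16-week and 4-week libraries lie below the lowest lean library (31324).

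The sum of the 9 arms followed miR-92a-3p. It took 0.723 to 1.05% of the CPM in the 16-week libraries, 0.590 to 1.89% in the 4-week libraries and 0.994 to 2.47% in the lean libraries, so the groups overlapped. Within the sum, miR-92a-3p held 84.2 to 92.6% at 16 weeks, 82.6 to 96.8% at 4 weeks and 92.02 to 98.5% in lean.

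The arms with few reads gave no difference that the depth could show. At 16 weeks, miR-92a-1-5p, the passenger arm opposite miR-92a-3p, had 3, 5, 0 and 8 reads in replicates 1 to 4, against 0, 4, 5 and 3 in lean. Its share of reads at 16 weeks was 0.996 times that in lean (interval 0.442 to 2.31, pooled reads), and its limma difference was -0.02 (adjusted p = 0.993). The passenger arm miR-20a-3p had 1, 2, 0 and 4 reads at 16 weeks, against 2, 0, 3 and 3 in lean, a ratio of 0.654 (interval 0.202 to 2.06), with a limma difference of -0.84 (adjusted p = 0.913). At 4 weeks both arms had 0 reads in all libraries. The mean of miR-92a-1-5p was 160.0 ± 168 CPM at 16 weeks and 136 ± 97.5 CPM in lean, and that of miR-20a-3p was 72.4 ± 86.3 CPM at 16 weeks and 119 ± 86.0 CPM in lean (SD, n = 4 each). All 4 means lie under the 213 CPM that 0 reads at 4 weeks allow. Differences from the 4-week group were therefore not detectable at this depth (limma at 4 weeks against lean, adjusted p = 0.0709 for miR-20a-3p and 0.0758 for miR-92a-1-5p).

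Of the miR-17 family seed, miR-106a-5p was the only arm with more than 1 read. It had 1, 3, 1 and 1 reads in the 16-week libraries, 0 in all 4-week libraries, and 0, 1, 0 and 0 in the lean libraries. It was seen in 4 of 4 libraries at 16 weeks and in 1 of 4 in lean, and the ratio of pooled shares at 16 weeks over lean was 4.48 with an interval of 0.544 to 206. It passed the limma filter (10 CPM in 4 or more libraries) through its 4 libraries at 16 weeks, the group where it was highest. The limma results and the separation of groups below therefore rest on a selection by those same values and give no independent support. In limma miR-106a-5p did not pass at 16 weeks against lean (4.37, adjusted p = 0.0994), a value set largely by the pseudocount on libraries at 0 (2.05 with a pseudocount of 10 CPM). It was called there without lean replicate 2, the lean library with its 1 read (limma adjusted p = 0.0116). At 16 against 4 weeks it was the one member called by limma (5.64, adjusted p = 0.0162), in a comparison where 10.5% of the tested miRNAs were called and 6.37% called higher. The 2 groups did not overlap, as for 7.87% of the tested miRNAs in this direction. Its 16-week mean of 55.1 ± 32.9 CPM (SD, n = 4) nevertheless lies under the 213 CPM that 0 reads at 4 weeks allow, so this difference was not detectable at this depth either, and edgeR's filter left the arm out.

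The other listed arms of that seed had at most 1 read each. A known regulator of E2f1, miR-20a-5p, had 1 read, in 16-week replicate 4 (48.7 CPM). The Mcm7-hosted miR-106b-5p, known to repress Cdkn1a, had 1 read, in 4-week replicate 3 (223 CPM). The family's name-giving arm miR-17-5p had 0 reads in all libraries, and so did miR-106b-3p, the opposite arm of miR-106b-5p, which allows up to 27.1 CPM at 16 weeks, 213 CPM at 4 weeks and 36.2 CPM in lean.

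**Figure D5:**
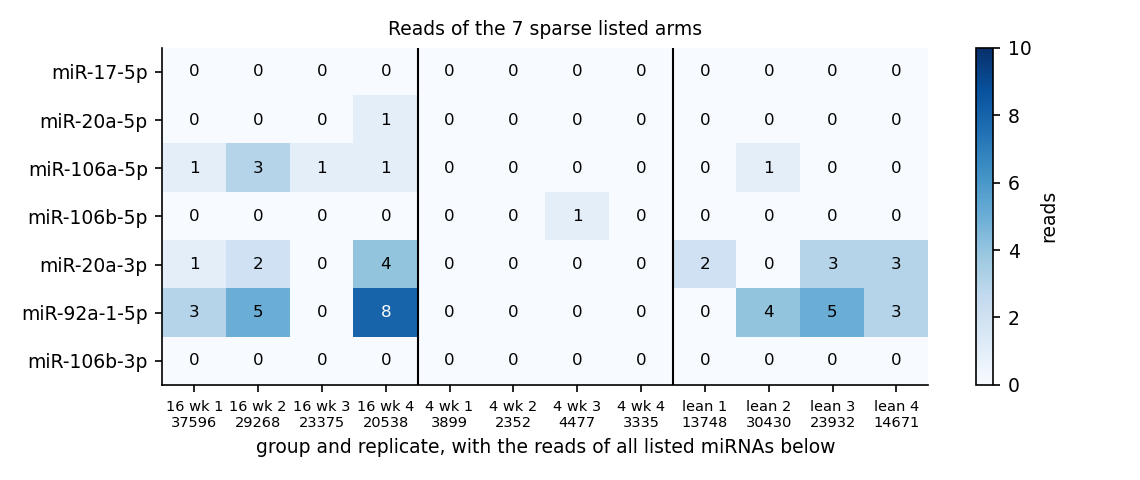
Recovered reads of the 7 listed arms other than miR-92a-3p and miR-17-3p (rows) in each library (columns: 16 weeks of HFD, 4 weeks, lean), written in each cell and shaded by number, with the reads of all listed miRNAs under each library. The 4-week libraries, of 2352 to 4477 reads, hold 1 read of these arms (miR-106b-5p in replicate 3), and miR-92a-1-5p and miR-20a-3p overlap between 16 weeks and lean.

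Among 129 miRNAs outside the 3 clusters with a read in at least 8 libraries, those whose CPM followed miR-92a-3p most closely were miR-3572-3p (Spearman's rho 0.89 over 12 libraries), miR-664-3p (0.88) and miR-6988-3p (0.85). For miR-17-3p, added after the values were seen, they were miR-24-2-5p (0.85), miR-351-5p (0.79) and miR-362-5p (0.76). These values describe likeness only: the libraries share groups and depth, and each CPM shares its total with every other miRNA. The 3 companions of miR-92a-3p were also those of the sum of the 9 arms (rho 0.89, 0.83 and 0.82). Since miR-92a-3p made up 82.6 to 98.5% of that sum, this was largely given in advance and adds no separate observation. Of the 3 companions, miR-664-3p averaged 1052 ± 309 CPM at 16 weeks, 1337 ± 1015 CPM at 4 weeks and 2384 ± 1535 CPM in lean (SD, n = 4 each). The mean of miR-3572-3p was also highest in lean (884 ± 830 CPM). That of miR-6988-3p was highest at 4 weeks (541 ± 738 CPM, against 484 ± 201 CPM in lean and 106 ± 118 CPM at 16 weeks). Of those of miR-17-3p, miR-24-2-5p averaged 13992 ± 2557 CPM at 16 weeks, 16530 ± 6700 CPM at 4 weeks and 4502 ± 3068 CPM in lean (SD, n = 4 each).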

How the data were processed

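The authors deposited 1 table of CPM (reads scaled to a common total) for 12 libraries. Per the submitters' processing notes, cutadapt 1.13, edgeR 3.16.5 and mm10 were used; the aligner, the miRNA annotation and how multiply matching reads were handled are not given in the sources used here. In each column the deposited CPM are whole multiples of the value of 1 read, which gave the depth: 2617 of 2664 values above 0 (98.2%) were whole reads (relative tolerance 1e-06). Values of 7 miRNAs, none of them a member, were not whole, and the count tests left those miRNAs out.

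Groups come from the sample titles. Limma 3.58.1 (R 4.3.3) was fitted to log2(CPM + 1) of the 267 miRNAs that reached 10 CPM in 4 or more of 12 libraries, with a variance trend, 3 group means and Benjamini-Hochberg adjustment over all tested miRNAs (2-sided, call under 0.05). Of the 9 members, 5 passed this filter, and the other 4 are given by reads. Where libraries are at 0, differences on this scale depend on the pseudocount. Alternatives were edgeR 4.0.16 (quasi-likelihood, TMM, filterByExpr; 72 miRNAs) and DESeq2 1.42.0 on the recovered reads, other pseudocounts, filters and scalings, and leaving out each library. Intervals of shares are exact binomial (95%). Sequences and positions are from RefSeq tables (GRCm38.p6), which matched 26 of the 28 arms and all 9 members, and hosts from the GENCODE annotation of that build.

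Same-numbered libraries showed only weak correlations of their deviations (-0.07 to 0.06). Between 16 weeks and lean these were all above 0 (0.023 to 0.065, mean 0.045, against -0.015 for other numbers). The main fits did not pair samples by number, but such weak values at this depth cannot settle whether the numbers pair them. The tests were checked on simulated data. All members are named; the members, marker lists and alternatives were chosen with earlier results of these data known.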

Additional observations from a re-analysis of the deposited data

Results flagged for a closer look

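In a group of 4 libraries, a value stands apart where its gap to the nearest other library, divided by the range of the group, exceeds Dixon's 95% critical value. Among the 9 arms this was so for miR-20a-5p in 16-week replicate 4 (48.7 CPM), miR-106b-5p in 4-week replicate 3 (223 CPM) and miR-106a-5p in lean replicate 2 (32.9 CPM). Each of these values is 1 read in a group whose other 3 libraries had 0. A single read beside 3 libraries at 0 always exceeds that value, so the chance rate of about 1 in 20 groups, which holds for continuous values, does not apply to these counts.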

How the results depend on the processing

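The direction of miR-92a-3p against lean was negative in both comparisons under all 15 other settings and without each library in turn. At 16 weeks against lean, 0 members were called by limma, and 1 by quantile normalization, edgeR or DESeq2 (miR-92a-3p) or without the variance trend (miR-106a-5p). At 4 weeks against lean, 2 were called under a 100-CPM filter (miR-20a-3p and miR-92a-1-5p), and 1, miR-92a-3p, without miR-101b-3p, with quantile normalization, by edgeR (also unfiltered or without miR-101b-3p) or by DESeq2. With 0 reads in all 4-week libraries, miR-20a-3p and miR-92a-1-5p passed each CPM filter only through lean and 16-week libraries. Their calls against the 4-week group rest on that selection and give no independent support, and 0 reads there allow up to 213 CPM. At 16 against 4 weeks, 0 in place of 1 were called with no filter, a 100-CPM filter, quantile normalization, DESeq2 or any form of edgeR. Among these, miR-106a-5p was tested and not called with no filter, quantile normalization and unfiltered edgeR. The 100-CPM filter, DESeq2 and the filtered forms of edgeR left it out, so they gave no test of it. Of 10 other settings that tested it, 7 called it. Without each library in turn, members called spanned 0 to 1 (limma and edgeR) at 16 weeks against lean, 0 to 1 (limma) and 1 (edgeR) at 4 weeks against lean, and 1 to 2 (limma) and 0 (edgeR) at 16 against 4 weeks. The number of all miRNAs called at 16 weeks against lean was 7, and 14 and 16 with pseudocounts of 10 and 50 CPM, 21 with only the 2 groups, 14 without the trend, 20 with quantile normalization, 25 by edgeR, 33 by unfiltered edgeR, 18 without TMM, 20 by edgeR without miR-101b-3p and 31 by DESeq2. At 4 weeks against lean it was 56, but 32 without TMM and 34 by edgeR without miR-101b-3p. Leaving out each library gave 3 to 11 (limma) and 14 to 36 (edgeR) at 16 weeks against lean, 40 to 60 and 33 to 47 at 4 weeks against lean, and 21 to 44 and 20 to 35 at 16 against 4 weeks. The cause of these shifts was not tested.

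Directions turned only for differences that no test called. At 16 against 4 weeks, miR-92a-3p turned to 0.64 (limma without miR-101b-3p), 0.23 (edgeR), 0.55 (unfiltered edgeR) and 0.16 (edgeR without miR-101b-3p), and miR-17-3p to 0.88, 0.93 (quantile), 0.40 (edgeR), 0.75 (unfiltered edgeR) and 0.22 (DESeq2). At 16 weeks against lean, miR-92a-1-5p turned to 0.019 (pseudocount 50) and 0.21 (unfiltered edgeR), and at 4 weeks against lean miR-106a-5p to 1.42 (quantile). Without each library in turn, the differences at 16 against 4 weeks spanned -0.58 to 0.052 (limma) and 0.024 to 0.56 (edgeR) for miR-92a-3p, and -0.23 to 0.20 and 0.37 to 0.98 for miR-17-3p. At 4 weeks against lean they spanned 0.85 to 1.27 (limma) and -0.073 to 0.77 (edgeR) for miR-17-3p and -1.69 to 0 for miR-106a-5p (limma), and at 16 weeks against lean -2.66 to 0.71 for miR-20a-3p and -1.89 to 1.85 for miR-92a-1-5p (limma). With the replicate number as a block, miR-92a-3p had limma adjusted p-values of 0.293 at 16 weeks and 0.290 at 4 weeks against lean, and the block changed no call of a member; libraries correlated best with their own number in 2, 1 and 1 of 4 cases. edgeR without TMM, without miR-101b-3p and without each library was added after the data were seen. Depth limits the 4-week values most, where 1 read is worth 223.4 to 425 CPM.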
